A study of Homo sapiens with 29 samples.

Results

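The effect of crotonate on lysine crotonylation of chromatin was measured in cells depleted of DAXX. Of the 29 libraries of the series, 6 carry this comparison: 2 anti-crotonyllysine (anti-Kcr) ChIP-seq libraries from HCT116 cells given 35 nM DAXX siRNA and 10 mM crotonate, numbered 2 and 3, and 4 from HCT116 cells given 35 nM DAXX siRNA without crotonate, numbered 1A, 1B, 2 and 3. Members were chosen by these labels, and all 49916 regions of the deposited table were used. HCT116 is an established human colorectal carcinoma line. The labels give 48 h of crotonate in the sample protocol and 18 h in the text for the whole series. An equal set of 6 libraries from cells given 25 nM non-targeting siRNA, 2 with 10 mM crotonate and 4 without, was used to ask whether the crotonate effect differed by siRNA. The background came from 1 input library, made from DAXX siRNA cells without crotonate per its label. The crotonate libraries thus have no input from treated cells. The antibody recognises crotonyllysine on any protein, and whether replicates are separate cultures is not stated, so the p-values measure the spread between these libraries.

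Crotonyllysine is a short-chain acyl mark on histone tails. It is made from crotonyl-CoA, chiefly by the acetyltransferases p300 and CBP, is removed by class I histone deacetylases and sirtuins, and is bound by YEATS and double PHD finger domains. It is known from the starts of active genes, where it lies beside histone acetylation, and crotonate added to cultured cells is known to feed the crotonyl-CoA pool. DAXX is the chaperone that, together with ATRX, deposits the histone variant H3.3 at heterochromatin and other sites. The colon epithelium meets crotonate and related short-chain acids from gut bacteria.

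Regions lie chiefly in and around genes. Of the 49916 regions, 13743 (27.5%) lay within 2 kb of a gene start, 25360 lay elsewhere inside a gene and 10813 lay outside genes. The median width was 1800 bp (300 to 107400 bp). The promoters of 6 genes whose regions are described below are shown to make plain what kind of sequence lies under these regions: VAV2 and GALNT7, where the signal was low in both crotonate libraries, ATP8A1, where it was high, MDGA1 and HPCAL4, whose RNA rose with crotonate, and ADGRF1, whose RNA fell. Each runs from 250 bases before to 50 bases after the start, 5′ to 3′ along the gene (RefSeq, GRCh38.p14). Capitals mark GGGCGG, the core of the binding motif of Sp and KLF factors, or its reverse complement CCGCCC.
VAV2: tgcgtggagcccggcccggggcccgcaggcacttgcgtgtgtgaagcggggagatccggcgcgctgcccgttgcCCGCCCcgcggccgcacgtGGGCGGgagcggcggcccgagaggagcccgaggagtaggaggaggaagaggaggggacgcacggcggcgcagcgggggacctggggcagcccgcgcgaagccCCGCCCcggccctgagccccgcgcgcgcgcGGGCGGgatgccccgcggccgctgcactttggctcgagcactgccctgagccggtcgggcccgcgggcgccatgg
GALNT7: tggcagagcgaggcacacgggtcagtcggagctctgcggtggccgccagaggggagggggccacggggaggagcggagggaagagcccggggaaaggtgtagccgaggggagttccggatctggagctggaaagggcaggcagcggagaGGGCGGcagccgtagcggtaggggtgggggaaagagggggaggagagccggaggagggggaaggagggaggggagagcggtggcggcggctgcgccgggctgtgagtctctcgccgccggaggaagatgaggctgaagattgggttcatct
ATP8A1: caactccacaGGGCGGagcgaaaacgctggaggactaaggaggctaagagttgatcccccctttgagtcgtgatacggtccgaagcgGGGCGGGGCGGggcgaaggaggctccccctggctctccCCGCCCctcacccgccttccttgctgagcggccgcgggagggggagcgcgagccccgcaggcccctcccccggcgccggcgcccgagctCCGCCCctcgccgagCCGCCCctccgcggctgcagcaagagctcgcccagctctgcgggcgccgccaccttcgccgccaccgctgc
MDGA1: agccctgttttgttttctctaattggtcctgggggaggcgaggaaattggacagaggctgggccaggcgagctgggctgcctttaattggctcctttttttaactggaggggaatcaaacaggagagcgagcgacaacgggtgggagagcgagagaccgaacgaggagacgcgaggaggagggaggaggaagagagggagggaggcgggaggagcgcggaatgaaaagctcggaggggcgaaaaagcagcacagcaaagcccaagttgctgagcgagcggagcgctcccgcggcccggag
HPCAL4: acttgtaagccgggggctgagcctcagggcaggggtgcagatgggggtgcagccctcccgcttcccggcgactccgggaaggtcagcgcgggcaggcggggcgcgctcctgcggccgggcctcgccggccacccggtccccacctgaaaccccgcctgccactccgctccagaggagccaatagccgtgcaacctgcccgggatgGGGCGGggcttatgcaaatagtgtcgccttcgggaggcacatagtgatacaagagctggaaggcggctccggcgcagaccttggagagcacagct
ADGRF1: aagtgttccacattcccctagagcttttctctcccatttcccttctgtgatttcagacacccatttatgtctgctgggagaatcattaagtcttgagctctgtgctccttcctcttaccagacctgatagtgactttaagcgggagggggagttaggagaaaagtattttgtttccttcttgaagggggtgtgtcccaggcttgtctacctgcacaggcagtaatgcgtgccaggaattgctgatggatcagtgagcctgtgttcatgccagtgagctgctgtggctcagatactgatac

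All of these sequences lie wholly inside an anti-Kcr region. The VAV2 promoter (chr9:133992275-133992574, minus strand) holds 46 CG dinucleotides and 4 copies of GGGCGG, and the ATP8A1 promoter (chr4:42657056-42657355, minus strand) holds 36 CG and 6 copies, a pair of them overlapping. The GALNT7 promoter (chr4:173168561-173168860, plus strand) holds 23 CG and 1 copy. Of the genes taken for their RNA, MDGA1 (chr6:37697834-37698133, minus strand) has 21 CG and 0 copies, HPCAL4 (chr1:39691384-39691683, minus strand) 25 CG and 1 copy, and ADGRF1 (chr6:47042283-47042582, minus strand) 2 CG and 0 copies. The median over 35116 RefSeq promoters of this length was 14 CG, and 45% of them held GGGCGG on either strand. Searched on both strands, TATAAA and TGANTCA were in none of the 6 windows (11.5% and 7.71% of all promoters), and CACGTG was in VAV2 alone of the 6, where it shares a base with a GGGCGG copy (7.26% of all promoters). VAV2, GALNT7 and ATP8A1 all held more CG than the median promoter, whichever way their signal lay.

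Recovered reads inside regions numbered 2226835 to 3639130 in the 6 libraries and 1719036 in the input, and the median region held 24 to 37 reads. Libraries 1A and 1B of DAXX siRNA cells differed by little more than read sampling (chi-squared over degrees of freedom 1.01) and were averaged to 1 sample, here called library 1, which leaves 2 samples with crotonate and 3 without. The 2 crotonate libraries differed from each other more than any other pair within a group (1.38, against 1.04 to 1.27 for the pairs other than 1A with 1B). DAXX RNA was 13.1 to 24.2 RPM in the RNA libraries with DAXX siRNA and crotonate and 22.9 to 27.4 RPM with DAXX siRNA alone, against 95.2 to 104.9 RPM in all non-targeting libraries (RPM, reads scaled to a fixed library total). The colon epithelium markers summed to 4485 to 5392 RPM with crotonate and to 4934 to 5391 RPM without it. The markers of other cell types summed to 19.5 to 27.7 RPM with crotonate and 12.2 to 19.5 RPM without for 7 fibroblast genes, to 10.4 to 13.6 RPM with and 10.4 to 12.5 RPM without for 8 leukocyte genes, and to 0.812 to 1.46 RPM with and 0.35 to 0.929 RPM without for 5 endothelial genes. Of these, 5, 5 and 3 were under 0.25 RPM in every library, and the part of such cells in the results was not tested.

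With 1A and 1B averaged, no region passed the test for a crotonate effect in DAXX siRNA cells. Across regions the anti-Kcr signal had a slightly lower median with crotonate, most so at gene starts. This median moved when either crotonate library was left out and with the scaling of the libraries. Of 49916 regions tested with limma, 0 were called higher (0%) and 0 lower (0%) at an adjusted p under 0.05, and the smallest adjusted p was 0.144. The count called lower was 3 with 1A and 1B as separate libraries, 3 with the replicate block, 1 when only regions at least 2-fold over the input were tested, and 395 without crotonate library 2, which leaves 1 crotonate library whose spread is taken from the other groups. At an unadjusted p under 0.05, 289 regions were higher (0.579%) and 3952 lower (7.92%). The log2 fold change was below 0 in 35919 regions (72.0%), its median was -0.16, or 10.3% less signal, and the median standard error of a single region was 0.26. Both crotonate libraries were below all 3 libraries without crotonate in 10110 regions (20.3%) and above all of them in 2095 (4.2%). Changes of at least 1 log2 unit were lower in 548 regions and higher in 172.

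The single libraries show how far the groups overlap. The median log2 ratio of anti-Kcr to input over all regions was 0.93 and 0.75 in crotonate libraries 2 and 3, against 1.03, 1.06 and 0.90 in libraries 1, 2 and 3 without crotonate. Crotonate library 2 thus lay above library 3 without crotonate, and the groups overlapped. The means were 0.84 ± 0.12 (SD, n = 2) with crotonate and 1.00 ± 0.085 (SD, n = 3) without, a difference of -0.16 (exact two-sided permutation test, p = 0.4, where the smallest p that 2 against 3 allows is 0.2). That test did not pair the libraries. Between libraries of the same number the difference was -0.13 for number 2 and -0.15 for number 3. Library 3 was below library 2 in each of the 4 groups, by 0.17 with DAXX siRNA and crotonate and by 0.16 with DAXX siRNA alone, against the crotonate difference of 0.16 in size.

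**Figure D1:**
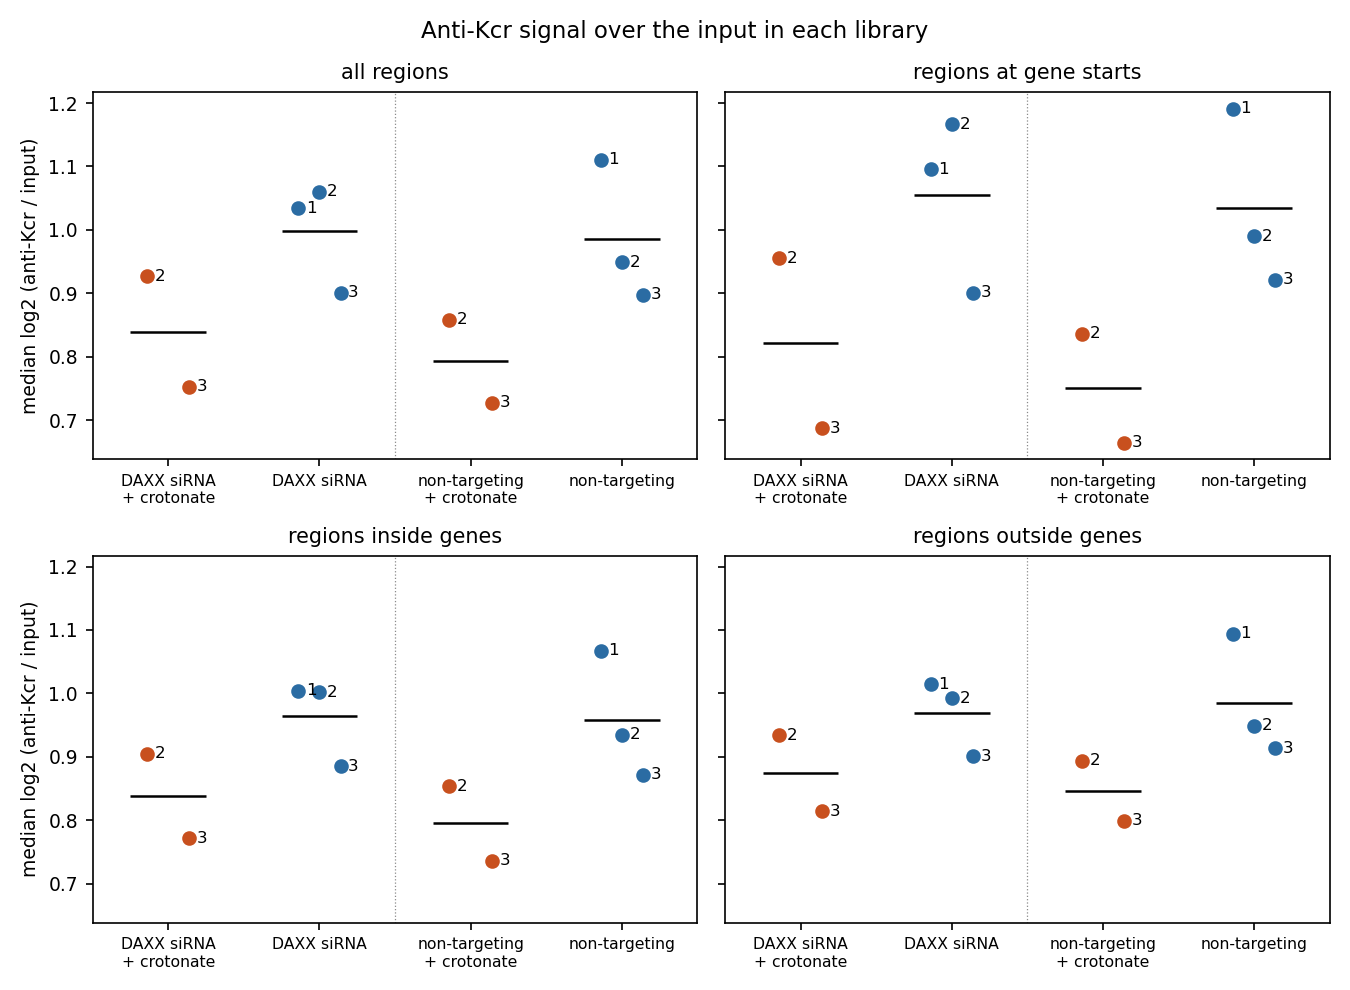
Median log2 ratio of anti-Kcr signal to the single input library in each library, over all regions and over regions at gene starts, inside genes and outside genes. Points are libraries with their number beside them (number 1 is the mean of 1A and 1B), orange with crotonate and blue without, and the lines are group means. In DAXX siRNA cells the crotonate library 2 lies above library 3 without crotonate in every panel.

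Scaled reads are reads times the authors' factor of the library. Over all regions they summed to 3.36 and 2.90 M in crotonate libraries 2 and 3, against 3.66, 3.72 and 3.24 M in libraries 1, 2 and 3 without crotonate. The groups again overlapped (difference -0.41 M, exact permutation p = 0.4). What each library's scaling factor was taken from is not given in the sources used here, and a change common to regions and background would not show. When every library was instead scaled to its total of reads in regions, the median over all regions moved by 0.18 log2 units, to 0.022. Differences between classes of region do not depend on that shift, and they are given next.

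Regions at gene starts had the lowest medians. The median log2 fold change was -0.24 (15.1% less) in the 13743 gene-start regions, where 85.3% were below 0, against -0.12 inside genes and -0.10 outside genes. Both crotonate libraries were below every library without crotonate in 26.7% of gene-start regions, beside the 20.3% of all regions. With the libraries scaled to their totals in regions the gene starts remained below 0 (-0.057), while the medians inside genes (0.056) and outside genes (0.077) turned positive. The difference between gene starts and other regions, -0.12, was the same under both scalings. It was -0.20 without crotonate library 2 and -0.044 without crotonate library 3. Without crotonate library 3 the medians were -0.061 over all regions, -0.089 at gene starts, -0.051 inside genes and -0.032 outside genes. Without crotonate library 2 they were -0.23 over all regions and -0.37 at gene starts.

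The libraries themselves gave the same order with overlap. The median log2 ratio to input at gene starts minus that of other regions was 0.040 and -0.098 in crotonate libraries 2 and 3, against 0.090, 0.17 and 0.00 in libraries 1, 2 and 3 without crotonate. Crotonate library 3 was lowest and library 2 without crotonate highest, with crotonate library 2 above library 3 without crotonate. The mean difference was -0.12 (exact two-sided permutation p = 0.4), and it was -0.13 within number 2 and -0.098 within number 3. Gene-start regions took 46.5 and 44.4% of the reads in regions in crotonate libraries 2 and 3, against 47.1, 47.9 and 46.1% in libraries 1, 2 and 3 without crotonate and 45.2% in the input. The share in crotonate library 3 was below that of the input, which came from cells without crotonate.

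The gap between gene starts and other regions was present at every level of enrichment and width. In 4 groups split at the quartiles of the mean signal over input, from lowest to highest, the median at gene starts was -0.21, -0.23, -0.25 and -0.25, against -0.13, -0.13, -0.12 and -0.092 in other regions. In 4 groups split at the quartiles of width, from narrowest to widest, it was -0.21, -0.27, -0.25 and -0.22 at gene starts, against -0.059, -0.10, -0.12 and -0.15 in other regions. No test was made of these medians, since regions of a library are not replicates.

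The X chromosome stood apart from the autosomes in its medians. Its 624 regions had a median log2 fold change of -0.32, against -0.16 over 49292 autosomal regions, and the 22 autosomes ranged from -0.18 (chromosome 19) to -0.13 (chromosome 10). The X lay lower than the autosomes both at gene starts (338 regions, -0.35 against -0.23) and elsewhere (286 regions, -0.27 against -0.12). Regions on X were narrow, with a median of 600 bp, and stood higher over the input (median log2 ratio 1.43, against 0.88 on autosomes). In the libraries, the X minus autosome difference in median log2 ratio to input was 0.75 and 0.45 in crotonate libraries 2 and 3, against 0.71, 0.84 and 0.58 in libraries 1, 2 and 3 without crotonate. The groups overlapped (mean difference -0.11, exact two-sided permutation p = 0.6). Leaving out crotonate library 3 brought the X minus autosome difference in median fold change to 0.014, against -0.27 without crotonate library 2 and -0.091 without library 2 of the cells without crotonate.

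**Figure D2:**
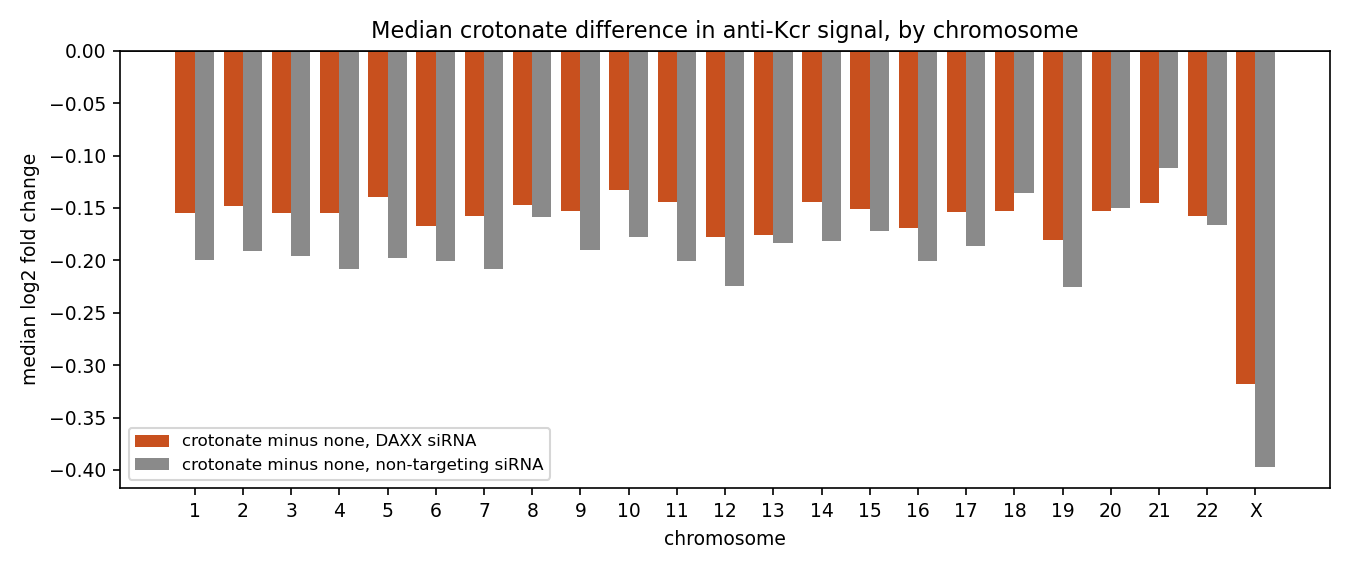
Median anti-Kcr log2 fold change (crotonate minus none) over the regions of each chromosome, orange bars with DAXX siRNA and grey bars with non-targeting siRNA. The X chromosome has the lowest median in both (-0.32 with DAXX siRNA), and the autosomes lie between -0.18 and -0.13 with DAXX siRNA, all as deposited (total scaling adds 0.18 to each DAXX siRNA bar).

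The crotonate difference did not test as different from that in non-targeting siRNA cells. The interaction called 0 of 49916 regions (0%), with a smallest adjusted p of 1.00, and at an unadjusted p under 0.05 it had 937 regions more positive (1.88%) and 605 more negative (1.21%) in DAXX siRNA cells. With non-targeting siRNA the median log2 fold change was -0.19, 74.4% of regions were below 0 and 0 were called (smallest adjusted p 0.0725). The medians at gene starts were -0.24 with DAXX siRNA and -0.29 with non-targeting siRNA, and those on X were -0.32 with DAXX siRNA and -0.40 with non-targeting siRNA. With non-targeting siRNA the 2 crotonate libraries lay below all 3 others in median signal over input (0.86 and 0.73, against 1.11, 0.95 and 0.90; exact two-sided permutation p = 0.2, the smallest attainable). A p that misses the threshold does not show that the siRNA arms respond alike.

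The gene-start regions with the smallest unadjusted p are described here as uncalled. Such a region lies within 2 kb of a start and need not cover it. Those of PHF10, SAV1, TMSB15B-AS1, LINC02690, RRP7A, PRRX2, CGB3 and CITED4 did not cover the start in the deposited table. PHF10, a subunit of the PBAF chromatin remodelling complex, had 7.9 and 6.5 scaled reads in crotonate libraries 2 and 3, against 30.1, 29.5 and 19.8 in libraries 1, 2 and 3 without crotonate and 7.4 in the input (chr6:169723051-169723950). That region lay inside the gene, short of the start at 169725566 on the minus strand. Both crotonate libraries were at the input level there, and all 3 others were above it. The log2 fold change was -1.86 (SE 0.33, limma adjusted p = 0.144), and the non-targeting arm gave -0.98. BAZ1A, a subunit of ISWI remodelling complexes, had 67.4 and 45.6 scaled reads with crotonate, against 102.0, 126.4 and 98.8 without and 37.0 in the input (chr14:34873051-34876050, log2 fold change -0.97, limma adjusted p = 0.357). The groups did not overlap at either gene.

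VAV2, a guanine nucleotide exchange factor, had 105.6 and 52.1 scaled reads with crotonate, against 135.8, 155.9 and 141.0 without and 62.5 in the input (chr9:133989601-133994400). Crotonate library 3 lay below the input at VAV2 and crotonate library 2 well above it. The log2 fold change of -0.96 was -1.47 without crotonate library 2 and -0.45 without crotonate library 3. GALNT7, an enzyme of mucin-type O-glycan synthesis, had 48.3 and 30.0 scaled reads with crotonate, against 71.4, 91.3 and 65.9 without (chr4:173167801-173170500, -0.99). SAV1, the scaffold of the MST kinases in the Hippo pathway, had 24.7 and 13.0, against 43.2, 57.6 and 35.6 without (chr14:50669251-50671350, -1.31). The groups did not overlap at GALNT7 or SAV1. RCBTB2 (-1.08) and MFHAS1 (-1.03), a leucine-rich repeat protein, were likewise lower in both crotonate libraries, as was the antisense RNA gene TMSB15B-AS1 on X (-2.10), where the values were only 4.5 and 2.6 scaled reads with crotonate, against 10.4, 21.1 and 14.5 without. Of these 8 genes, RNA was tested for 7 and called changed for 0, beside 13% higher and 2.41% lower over all 17973 genes tested.

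Regions with higher signal at an unadjusted p under 0.05 were fewer (289, given above). ATP8A1, a phospholipid flippase, had 30.3 and 20.9 scaled reads in crotonate libraries 2 and 3, against 18.0, 12.6 and 13.2 in libraries 1, 2 and 3 without and 5.3 in the input (chr4:42657001-42657900). The groups did not overlap, and the log2 fold change was 0.81 (SE 0.33, limma adjusted p = 0.539). PRRX2, a homeobox factor, had 39.3 and 39.1, against 25.6, 25.3 and 26.4 (chr9:129662401-129664200, 0.61), the most even values of the set. CITED4, a partner of CBP and p300, had 49.4 and 35.2, against 29.8, 28.1 and 25.0 (chr1:40863301-40865100, 0.60). The other 5 were LINC02690 (0.91), the rRNA processing factor RRP7A (1.75), the T-box factor TBX15 (0.89), TUB (0.60) and the gonadotropin subunit CGB3 (1.45). RNA was tested for 4 of these 8 genes, and only CITED4 was called, higher by 1.36 log2 units (limma adjusted p = 0.035). Over all genes tested, 13% were called higher and 2.41% lower. At RRP7A and CGB3 a library without crotonate had 1.3 and 1.4 scaled reads, and CGB3 has near-identical neighbouring copies between which reads may be split. None of the 16 regions changed sign in any setting tried. They were chosen by p from these data, and their groups did not overlap. Leaving out a library could therefore not change a sign, and the count is no support for them.

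**Figure D3:**
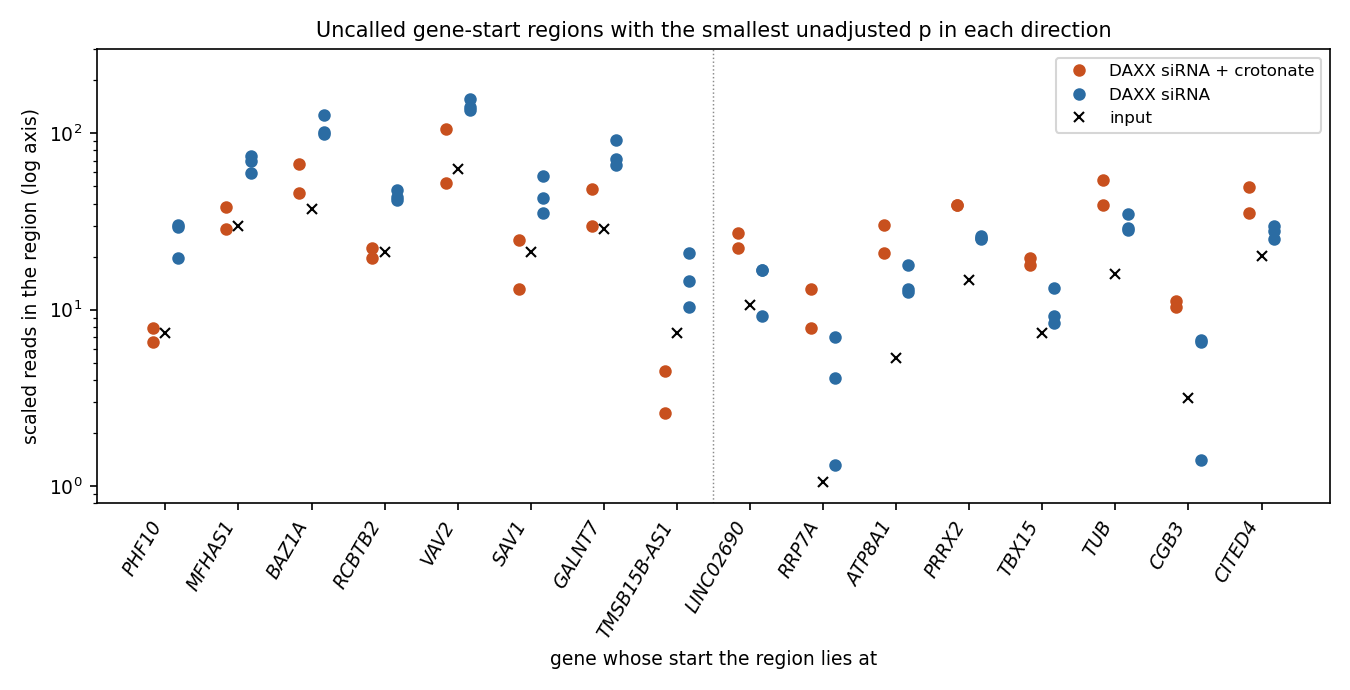
Scaled reads (log axis) in each library at the 8 lower and 8 higher gene-start regions with the smallest unadjusted p, divided by the dotted line. Orange points are DAXX siRNA with crotonate (n = 2), blue points DAXX siRNA alone (n = 3) and crosses the input. The groups do not overlap at any of the 16, which were chosen by p, and 0 were called.

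Listed genes are given with the number below 0 as deposited and, after it, with each library scaled to its total of reads in regions, which moves every fold change up by 0.18. As deposited, 85.3% of gene-start regions and 89.1% of all genes with a region were below 0. The counts below are to be read beside these shares. The share of all gene starts below 0 after total scaling is not given here. The machinery of crotonylation lay near the median of gene starts. Of 7 writers, 6 had a region at their start, with a log2 fold change below 0 at 6 of 6 as deposited and 5 of 6 after total scaling (median -0.28, beside -0.24 over all gene-start regions), with 0 called. EP300, which encodes p300, had 107.8 and 82.1 scaled reads in crotonate libraries 2 and 3, against 105.0, 143.2 and 115.9 in libraries 1, 2 and 3 without (-0.36, limma adjusted p = 0.599). KAT5, the TIP60 acetyltransferase, had 140.4 and 89.9, against 161.7, 182.6 and 134.4 (-0.49). At both genes crotonate library 2 lay within the range without crotonate. Of 7 erasers, 4 had a region, with 4 below 0 as deposited and 2 after total scaling (median -0.24), led by the sirtuin SIRT3 (-0.33) and the deacetylase HDAC3 (-0.31).

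Among 9 readers, 7 had a region, with 7 below 0 as deposited and 7 after total scaling (median -0.23). DPF2, a double PHD finger subunit of BAF remodelling complexes, had 38.2 and 24.8 scaled reads with crotonate, against 52.3, 61.8 and 68.5 without and 26.5 in the input (chr11:65333401-65335650). The groups did not overlap, and the log2 fold change was -0.97 (SE 0.24, limma adjusted p = 0.43), against -0.25 with non-targeting siRNA. Genes named from lists, DPF2 among them, were picked for the size of their change, so neither the lack of overlap nor this contrast is support. Both crotonate libraries were lowest at 2 of the 7 reader regions (26.7% over all gene-start regions), and the interaction called 0 regions. KAT6A, a double PHD finger acetyltransferase, had 24.7 and 24.8, against 43.6, 42.1 and 29.0 (-0.60). Of 9 enzymes of crotonyl-CoA metabolism only 3 had a region, with 3 below 0 as deposited and 1 after total scaling, and their median of -0.095 turned to 0.084. The hydratase ECHS1 (-0.74) had 14.6 and 3.9 scaled reads with crotonate, against 15.0, 8.4 and 15.8 without, so that the groups overlapped, and the ethylmalonyl-CoA decarboxylase ECHDC1 was at -0.095. RNA was called higher for 1 of 7 erasers, 3 of 9 readers and 1 of 9 crotonyl-CoA enzymes, and changed for 0 of 7 writers, beside 13% higher and 2.41% lower over all 17973 genes tested.

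DAXX, its partners and H3.3 chaperones had 10 regions for 14 genes, 8 of them below 0 as deposited and 6 after total scaling (median -0.24), and both crotonate libraries were lowest at 5 (the share over all gene-start regions was 26.7%). ATRX, the remodeller that works with DAXX, lies on X and had 13.5 and 10.4 scaled reads with crotonate, against 15.1, 29.5 and 19.8 without and 1.1 in the input (chrX:77785651-77786400, -0.79, limma adjusted p = 0.563). TRIM28, the KAP1 corepressor, had 115.7 and 89.9, against 134.6, 137.6 and 125.2 (-0.38). RNA was called higher for 0 and lower for 1 of the 14 (13% and 2.41% over all genes tested), DAXX itself (log2 fold change -0.38, limma adjusted p = 0.0452).

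Genes of protein synthesis and DNA replication formed the longest lists. As deposited, the median over all genes with a region was -0.25. Tested genes with a region were also split into 4 groups at the quartiles of RNA level. In the group with the most RNA the median was -0.29, and 96.0% were below 0. Whether the ribosomal protein, replication and housekeeping lists differ from genes of like RNA level was not tested. Of 82 ribosomal protein genes 71 had a region, 69 of those were below 0 as deposited and 60 after total scaling, and the median was -0.31 as deposited and -0.13 after it. Both crotonate libraries were lowest at 26 of the 71 (the share over all gene-start regions was 26.7%). RPS9 had 78.6 and 56.0 scaled reads with crotonate, against 125.0, 155.9 and 90.9 without (-0.86, limma adjusted p = 0.43), and the X-linked RPS4X had 9.0 and 3.9, against 18.0, 18.3 and 19.8 without and 7.4 in the input (-1.65, limma adjusted p = 0.43). RNA of ribosomal protein genes was called higher for 0 and lower for 4 of the 80 tested. For replication genes it was called higher for 0 and lower for 5 of 28, and for housekeeping genes higher for 0 and lower for 0 of 12. Over all genes tested the shares were 13% and 2.41%. Of 28 replication genes 24 had a region, with 24 below 0 as deposited and 23 after total scaling (medians -0.30 and -0.12), among them MCM3 at -0.59 (29.2 and 18.2 scaled reads with crotonate, against 29.8, 44.9 and 31.6 without) and ORC6 at -0.59 (53.9 and 54.7, against 93.5, 101.1 and 58.0), parts of the replicative helicase and of the origin complex. The 12 housekeeping genes gave 11 regions, 11 below 0 as deposited and 10 after total scaling (medians -0.32 and -0.14), led by the X-linked HPRT1 (-0.84) and GUSB (-0.46).

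The next lists are given in RNA first and then in anti-Kcr signal. They were written with earlier results of these data known, so their RNA counts are no independent support. Of all genes with a region, 89.1% were below 0 in anti-Kcr signal as deposited. Of 21 immediate early and MAP kinase feedback genes, RNA was called higher for 11 and lower for 0 (13% and 2.41% over all genes tested), and 19 had a region, with anti-Kcr signal below 0 at 19 as deposited and at 14 after total scaling (medians -0.24 and -0.057). JUN, an AP-1 subunit, had 155.0 and 67.8 scaled reads with crotonate, against 141.4, 148.9 and 114.6 without (-0.39), and its RNA rose by 0.64 log2 units (limma adjusted p = 0.00277). JUNB had 462.8 and 351.9, against 560.7, 594.0 and 444.0 (-0.39). Of 20 integrated stress response genes, 19 were tested in RNA, with 9 called lower and 0 higher (2.41% and 13% over all genes tested), and 17 of 19 regions were below 0 as deposited and 14 after total scaling (medians -0.23 and -0.052). ASNS, asparagine synthetase, had 33.7 and 26.1, against 49.8, 46.3 and 48.7 (-0.70), with an RNA log2 fold change of -0.34 (limma adjusted p = 0.00879). The lipoprotein receptor VLDLR was at 0.55 (16.8 and 24.8 scaled reads with crotonate, against 16.0, 9.8 and 17.1 without).

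The Wnt target and stem cell list had 11 regions, of which 9 were below 0 as deposited and 6 after total scaling (medians -0.21 and -0.034), and RNA was called higher for 7 of 13 tested genes and lower for 0 (13% and 2.41% over all genes tested). EPHB2, an ephrin receptor and Wnt target of the crypt, had 55.0 and 57.3 scaled reads with crotonate, against 77.3, 92.7 and 93.5 without and 42.3 in the input (chr1:22711051-22715100, -0.64, limma adjusted p = 0.515). The groups did not overlap at EPHB2, which was picked for the size of its anti-Kcr change, and its RNA was higher by 0.99 log2 units (limma adjusted p = 3.12e-07). PROM1, the CD133 surface protein, had 25.8 and 35.2, against 46.5, 59.0 and 36.9 (-0.61). Genes known to respond to deacetylase inhibitors had 11 regions, 9 of them below 0 as deposited and 9 after total scaling (medians -0.29 and -0.11), and RNA was called higher for 7 of 14 tested genes and lower for 0 (13% and 2.41% over all genes tested). This list and the Wnt list were also written with earlier results of these data known, so the RNA counts are no independent support. The deacetylase inhibitor list holds VGF, which is named below for its RNA rise. CRIP1 was at -0.44 (692.0 and 493.9, against 867.2, 866.5 and 661.4) and STMN3 at -0.33.

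Markers of the line and of other cell types completed the lists. The 14 colon epithelium markers had 11 entries with a region, KRT8 and KRT18 sharing 1, and 10 of the 11 were below 0 as deposited and 8 after total scaling (medians -0.29 and -0.11). KRT8, an epithelial keratin, had 279.7 and 241.1 scaled reads with crotonate, against 356.1, 403.0 and 312.2 without (-0.45), and LGALS4 was at -0.74 with 15.7 and 10.4, against 19.7, 21.1 and 23.7. Of 4 regions each for fibroblast and leukocyte markers, 3 and 4 were below 0 as deposited (medians -0.093 and -0.17) and 0 and 2 after total scaling (0.086 and 0.014), led by COL1A2 (0.23), COL1A1 (-0.16), CD14 (-0.33) and CD68 (-0.25). The 2 endothelial regions, PECAM1 and CDH5, were at -0.10 and -0.062, and both turned positive after total scaling.

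**Figure D4:**
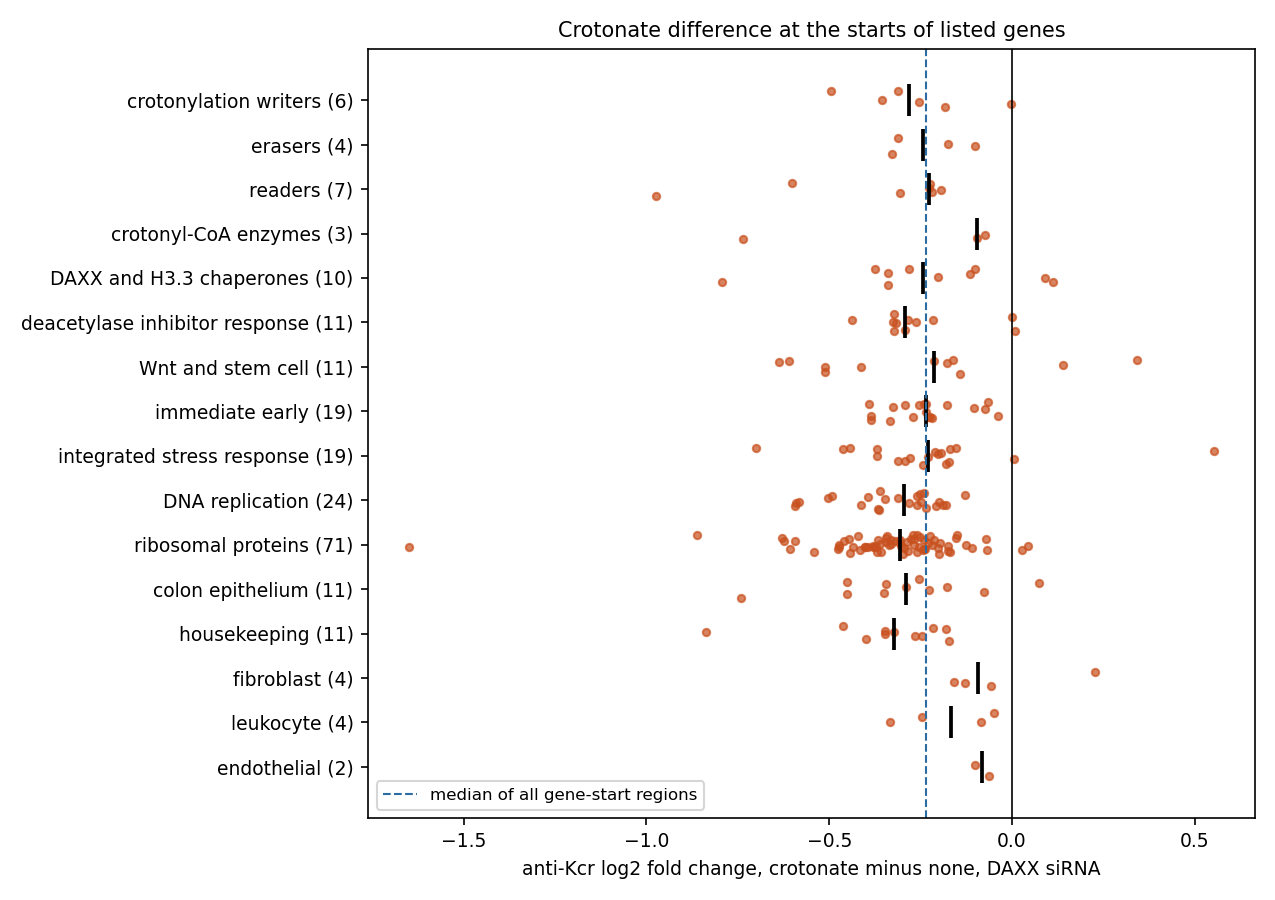
Anti-Kcr log2 fold change (crotonate minus none, DAXX siRNA) at the start of each listed gene, with the number of genes that have a region in brackets. Points are genes, black ticks the list medians, and the dashed line the median of all gene-start regions (-0.24). Ribosomal protein, replication and housekeeping genes have medians of -0.31, -0.30 and -0.32 (-0.13, -0.12 and -0.14 with each library scaled to its total of reads in regions), and 0 genes were called.

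The anti-Kcr signal was then set beside RNA. In DAXX siRNA cells crotonate raised the RNA of 2338 of 17973 genes (13%) and lowered that of 433 (2.41%; limma, adjusted p under 0.05, at least 0.25 RPM in at least 4 libraries). A region lay at the start of 1493 of the raised genes, 345 of the lowered and 10470 of those not called. Genes that neighbour each other can share a region, and RNA and ChIP libraries are separate samples. In such bulk RNA, more cells of a state and more RNA per cell cannot be told apart. The median anti-Kcr log2 fold change was -0.22 where RNA rose, -0.35 where RNA fell and -0.28 where it was not called, and -0.17 at the starts of 4433 genes with too little RNA to test. Signal was below 0 at 86.1% of starts where RNA rose and at 97.4% where RNA fell. Where RNA rose by at least 1 log2 unit (253 genes), the median was -0.14, and where it fell by at least 1 log2 unit (13 genes) it was -0.36. Both sets held little RNA (median log2 RPM 0.30 and 0.28, against 3.85 for all raised genes with a region). The part of RNA level in these medians was not tested.

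The order was the same in each of 4 groups split at the quartiles of RNA level. From the lowest to the highest group, the median was -0.16, -0.24, -0.24 and -0.24 where RNA rose, against -0.24, -0.28, -0.29 and -0.29 where it was not called. Where RNA fell it was -0.33, -0.35, -0.37 and -0.32. The quartile ranges of the classes overlapped throughout. The non-targeting arm gave -0.27 at the starts of the genes with raised RNA, -0.37 at those with lowered RNA and -0.34 at those not called, for the same gene sets. The difference between starts of genes with raised and with lowered RNA was 0.12 log2 units. Without crotonate library 3 the medians were -0.098, -0.13 and -0.098 where RNA rose, fell and was not called, and without crotonate library 2 they were -0.34, -0.55 and -0.45. The difference was 0.21 without crotonate library 2, 0.031 without crotonate library 3 and 0.071 without library 2 of the cells without crotonate.

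**Figure D5:**
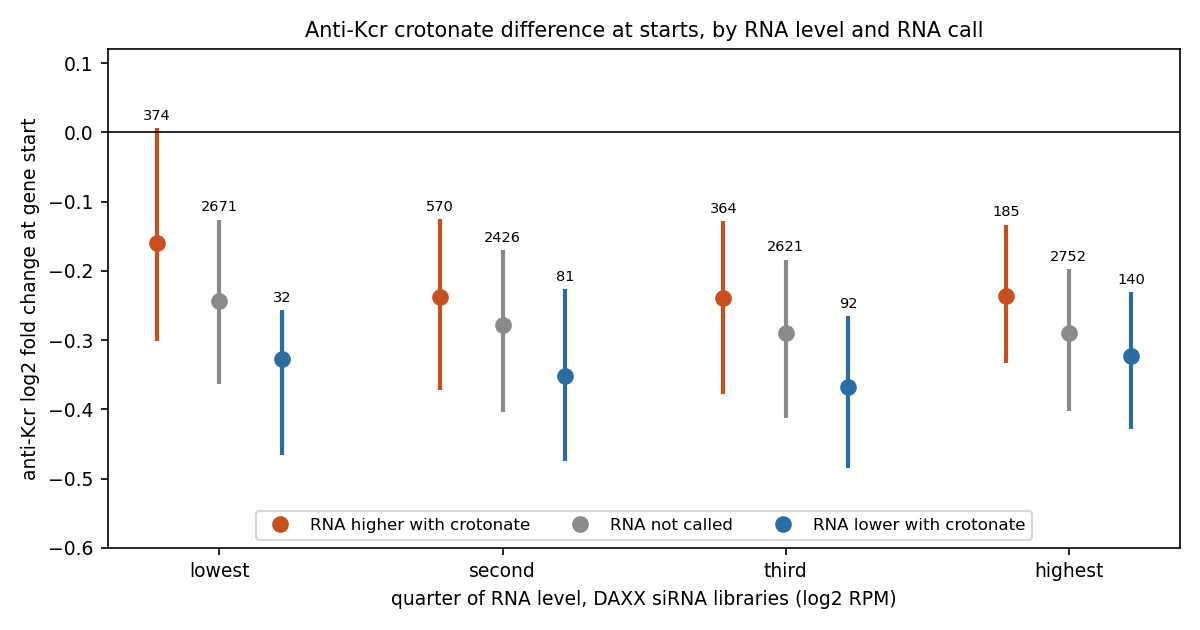
Median (points) and quartiles (bars) of the anti-Kcr log2 fold change (crotonate minus none, DAXX siRNA) at gene starts, by RNA level (4 groups split at quartiles) and by whether RNA was higher, not called or lower with crotonate. The number of genes stands above each bar. Starts of genes with raised RNA have the highest median at each level (-0.16 to -0.24) and those with lowered RNA the lowest (-0.32 to -0.37).

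The genes with the largest RNA changes had no called change in anti-Kcr signal. MDGA1, an adhesion protein, had 21.4 to 26.1 RPM with crotonate, against 6.93 to 11.1 RPM without (RNA log2 fold change 1.35, limma adjusted p = 4.22e-06). The region within 2 kb of its start had 120.2 and 121.2 scaled anti-Kcr reads with crotonate, against 146.6, 136.2 and 121.2 without (chr6:37691851-37698150, -0.15, limma adjusted p = 0.82). HPCAL4, a neuronal calcium sensor, had 22.6 to 26.6 RPM, against 8.57 to 10.4 RPM (1.34, limma adjusted p = 3.4e-08), and 131.4 and 96.4 scaled reads, against 143.7, 150.3 and 126.5 (-0.31). At both genes the RNA groups were apart and the mean anti-Kcr signal with crotonate was below that without.

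The other 6 genes of the largest RNA rise gave a mixed picture. The neuropeptide precursor VGF (RNA 1.34, anti-Kcr -0.32), the actin-associated PDLIM3 (1.31, -0.26), the NOTCH3 receptor (1.17, -0.46) and the kinesin KIF21B (1.16, -0.16) were below 0 in anti-Kcr signal, and the guidance factor NTN1 (1.19, 0.027) was near 0. After total scaling KIF21B, like MDGA1, lay above 0 (0.022 and 0.026). At NOTCH3 both crotonate libraries, with 75.3 and 73.0 scaled reads, were below 93.5, 106.7 and 105.4 in the libraries without. L1CAM, a neural adhesion molecule on X, lay furthest above 0, with 19.1 and 18.2 scaled reads, against 12.5, 12.6 and 14.5 (0.52, limma adjusted p = 0.69), and 1.05 in the non-targeting arm. Its region (chrX:153883501-153884250) did not cover the start at 153886174. Among 8 genes of the largest RNA fall, 8 were below 0 in anti-Kcr signal as deposited, between -0.45 (the TFIIIC subunit GTF3C6) and -0.089 (ZBED2, which was at 0.090 after total scaling). ADGRF1, an adhesion receptor, had 144.9 and 91.2 scaled reads, against 143.4, 168.5 and 134.4 (-0.36), with an RNA log2 fold change of -0.71. The adapter IRS1 (-0.34), the caveolar protein CAV1 (-0.26), ALDH3B1 (-0.24), the retinal reductase DHRS3 (-0.24) and the epithelial factor ELF3 (-0.23) lay between, and 0 of the 16 were called.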

How the data were processed

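Anti-Kcr ChIP-seq and RNA-seq libraries were analysed from 2 deposited tables. Per the submitters' processing notes, reads were trimmed with Trim Galore (0.6.5 for ChIP, 0.6.2 for RNA) and cutadapt 2.3, ChIP reads were aligned with Bowtie2 and regions made with MACS, and RNA reads were aligned with HISAT2 2.2.1, all on GRCh38. The deposited values are log2: for ChIP, log2 of reads times 1 factor per library, not divided by width and with the input not subtracted, and for RNA, log2 RPM. In both, 0 reads were entered as 0.9. Undoing the factors gave whole reads for 100% of ChIP values (tolerance 0.01 read). How regions of single libraries were joined is not given in the sources used here.

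All regions were tested with limma 3.58.1 (R 4.3.3, trended prior) on the deposited log2 values of all 12 anti-Kcr libraries, with 1A and 1B averaged. The model had 1 coefficient per group and Benjamini-Hochberg adjustment over all regions. It was also run on simulated reads without the shifts between libraries seen here, which does not show how it performs on these data. Scaled reads are 2 to the power of the deposited values, and those of library 1 are the mean of 1A and 1B on that scale. Region ends and gene starts are those of the deposited tables, and the region with the highest mean signal stands for a gene. Named regions are the 8 gene-start regions of smallest unadjusted p each way, the 8 genes of largest called RNA change each way with a region, and the 2 members of largest anti-Kcr change in each list. A listed gene is not reported here and was left out of its list. Members, lists and tests were chosen with earlier results of these data known. RNA changes use the same limma model on RNA libraries (4 in each group). Alternatives covered scaling, voom, filters, windows, a replicate block and leaving out libraries.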

Additional observations from a re-analysis of the deposited data

Results flagged for a closer look

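1 of 32 groups of 4 RNA libraries examined held a library far from the others. With DAXX siRNA and crotonate, HPCAL4 RNA was 26.6 RPM in library 1 and 22.6 to 22.9 RPM in the other 3, a gap of 0.931 of the range. Chance gives about 1 such group in 20. All 4 values were above those without crotonate (8.57 to 10.4 RPM).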

How the results depend on the processing

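The count of regions called higher was 0 in every setting run, and the interaction called 0 in each. The count called lower was 0 as reported, 3 with 1A and 1B kept as separate libraries, 3 with the replicate block, 1 among regions at least 2-fold over the input, and 0 to 395 when 1 library was left out, the 395 coming without crotonate library 2, where the crotonate arm is 1 library that is assumed to vary like the libraries of the other groups. With limma-voom on recovered reads it was 0.

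Scaling moved the medians. With each library centred on its median region, quantile normalization and scaling to the total of reads in regions, the median over all regions was -0.022, 0.000899 and 0.022, that inside genes 0.011, 0.027 and 0.056, and that outside genes 0.033, 0.041 and 0.077. With quantile normalization and total scaling, gene starts gave -0.062 and -0.057, starts of genes with raised RNA -0.040 and -0.042, with lowered RNA -0.16 and -0.17, and with RNA not called -0.096 and -0.097. When 1 library was left out, the median was -0.23 to -0.061 over all regions, -0.14 to -0.032 outside genes, -0.55 to -0.13 where RNA fell, -0.45 to -0.098 where RNA was not called, and -0.27 to 0.014 for X minus autosomes. The cause was not tested.

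Across regions, library 3 minus library 2 correlated only weakly between groups (0.016 to 0.098). With 24 to 37 reads in the median region, a low correlation cannot show that equal numbers are unrelated. In median signal over input, library 3 lay below library 2 in each of the 4 groups, by 0.051 to 0.17. Whether the numbers pair the libraries is not known, and the main model did not pair them. With the replicate block the median over all regions was -0.11. Of 419 values, in other settings, of the regions named for their p or for RNA, 15 changed sign, all at genes named for their RNA (CAV1, ELF3, PDLIM3 and ZBED2 without crotonate library 3, NTN1 without crotonate library 2 or library 3 without crotonate, ZBED2 without library 1, and the rest by scaling or the replicate block). Regions named for their p could hardly change sign, since they were chosen by that p from these data. The comparison rests on 2 libraries against 3, with 24 to 37 reads in the median region.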
